A study of Bos taurus with 16 samples.

Results

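The genes described here encode proteins that mark blood platelets: PF4, PPBP, ITGA2B, ITGB3, GP1BA, GP9, TREML1 and TUBB1. Of these 8 genes, 7 had a probe on the custom bovine array and GP9 had none, so that 17 of the 46615 probes and 7 of the 26659 genes or transcripts are described. A probe was taken when the name given to it in the scanner files was one of these symbols or the Ensembl gene identifier ENSBTAG00000011961, which is PF4. PF4 had 3 probes, ITGB3 4, GP1BA 3, ITGA2B, TREML1 and TUBB1 2 each, and PPBP 1. The set was selected on a measured value, the PF4 signal difference between cows with and without subclinical endometritis on these arrays, so the differences between those groups are given below as a description and are supported by no test.

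The arrays were hybridized with RNA of 8 multiparous Holstein cows sampled between days 45 and 55 post-partum. Subclinical endometritis (SCE) is an inflammation of the uterine lining without visible signs. Here 4 cows were SCE by histology and cytobrush (cows 718, 833, 836 and 846) and 4 were healthy (cows 841, 850, 877 and 883), and each cow gave 1 sample of circulating white blood cells (WBC) and 1 endometrial biopsy. The labels name no treatment and no genetic alteration in any group. The SCE and healthy cows were not balanced for the phase of the oestrous cycle, since more of the SCE cows were in the luteal phase. The phase of each cow was not given in the labels, so phase and disease cannot be separated here. The WBC RNA came from PAXgene tubes, into which whole blood is drawn and lysed, so that the sample was not a purified leukocyte fraction. All WBC arrays shared 1 slide and all endometrial arrays another, and the tissues were extracted with different kits, so tissue, slide and extraction cannot be told apart.

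Platelets are small fragments shed by megakaryocytes of the bone marrow. They have no nucleus and carry RNA inherited from the megakaryocyte, together with granules filled with chemokines and clotting proteins. At a damaged vessel wall they adhere through the GPIb-IX-V complex, which binds von Willebrand factor, aggregate through the fibrinogen receptor made of the integrin chains encoded by ITGA2B and ITGB3, and release their granules. In a uterine biopsy they can be present in the blood that it carries. In bulk samples such as these, fewer platelets and less RNA per platelet cannot be told apart.

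The sequences of 7 probes are shown, those of PF4 because its probes share most of their bases and those of TREML1 and TUBB1 because the probes of each gene disagreed on its level in the endometrium. They were read from the scanner files, 5′ to 3′ in the sense of the probe, and each was 60 bases long. For PF4, which encodes the alpha-granule chemokine CXCL4, the capitals mark the 44 bases that all its probes share.
PF4 A_73_P046226: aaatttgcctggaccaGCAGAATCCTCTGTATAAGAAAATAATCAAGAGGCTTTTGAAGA
PF4 CUST_1911_PI427023673: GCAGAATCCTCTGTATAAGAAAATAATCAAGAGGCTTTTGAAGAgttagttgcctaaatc
PF4 CUST_1912_PI427023673: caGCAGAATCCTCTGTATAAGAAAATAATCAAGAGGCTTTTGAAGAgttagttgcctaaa
The PF4 probes therefore read nearly the same stretch and are not independent measurements of the gene. Across the 8 WBC arrays their levels correlated with each other at 0.977 to 0.991. The first of them lies at chr6:91905931-91905990 on the plus strand in the coordinates of the scanner files, whose header names the bovine build HGSC Btau_3.1. In the RefSeq annotation of the bovine genome (ARS-UCD2.0), PPBP and PF4 were neighbours on chromosome 6, with 0 genes between them.

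For TREML1 and TUBB1 no letters are in capitals, since the probes of each gene cover separate stretches. TREML1 encodes a receptor of the alpha-granule membrane and TUBB1 the beta-tubulin of the ring of microtubules that gives the platelet its disc shape.
TREML1 A_73_120826: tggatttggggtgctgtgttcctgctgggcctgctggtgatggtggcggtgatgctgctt
TREML1 A_73_P149351: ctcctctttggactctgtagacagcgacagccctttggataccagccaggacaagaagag
TUBB1 A_73_106849: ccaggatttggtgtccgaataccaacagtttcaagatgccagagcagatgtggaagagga
TUBB1 A_73_P286311: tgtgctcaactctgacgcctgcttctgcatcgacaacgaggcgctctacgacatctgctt
The TREML1 probes lie at chr23:15698110-15698169 and chr23:15698577-15698636, and those of TUBB1 at chr13:58082081-58082140 and chr13:58082750-58082809, all on the minus strand. The longest stretch that A_73_P286311 shared with a probe named for another gene was 14 bases, with a probe of TUBB2A, another beta-tubulin. Values of 12 to 16 bases were found for the other platelet probes. Probes were compared only with other probes, so matches of a probe to transcripts of other genes were not examined.

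All 7 genes were measured in WBC. At least 1 probe of each gene, and 12 of the 17 probes in all, were well above background on every one of the 8 WBC arrays. The remaining 5 probes, 3 of ITGB3 and 2 of GP1BA, were at or near background, and both dim GP1BA probes (A_73_P065216 and A_73_P326866) were not well above background on any array of either tissue. The levels below are log2 signals after quantile normalization, and levels of different probes cannot be set against each other. Among the arrays, those of SCE cow 833 stood apart: the median correlation of its array with the other arrays of the tissue was 0.9716 in WBC and 0.9403 in the endometrium, the lowest of either tissue. Its WBC array had the highest median signal over background of that tissue (202.5 intensity units, others 83 to 132) and its endometrial array the lowest (79 units, others 248 to 316). Differences of the 17 probes printed below between SCE and healthy animals are given also without this cow where its removal moved them by more than 0.1 on the log2 scale.

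**Figure D1:**
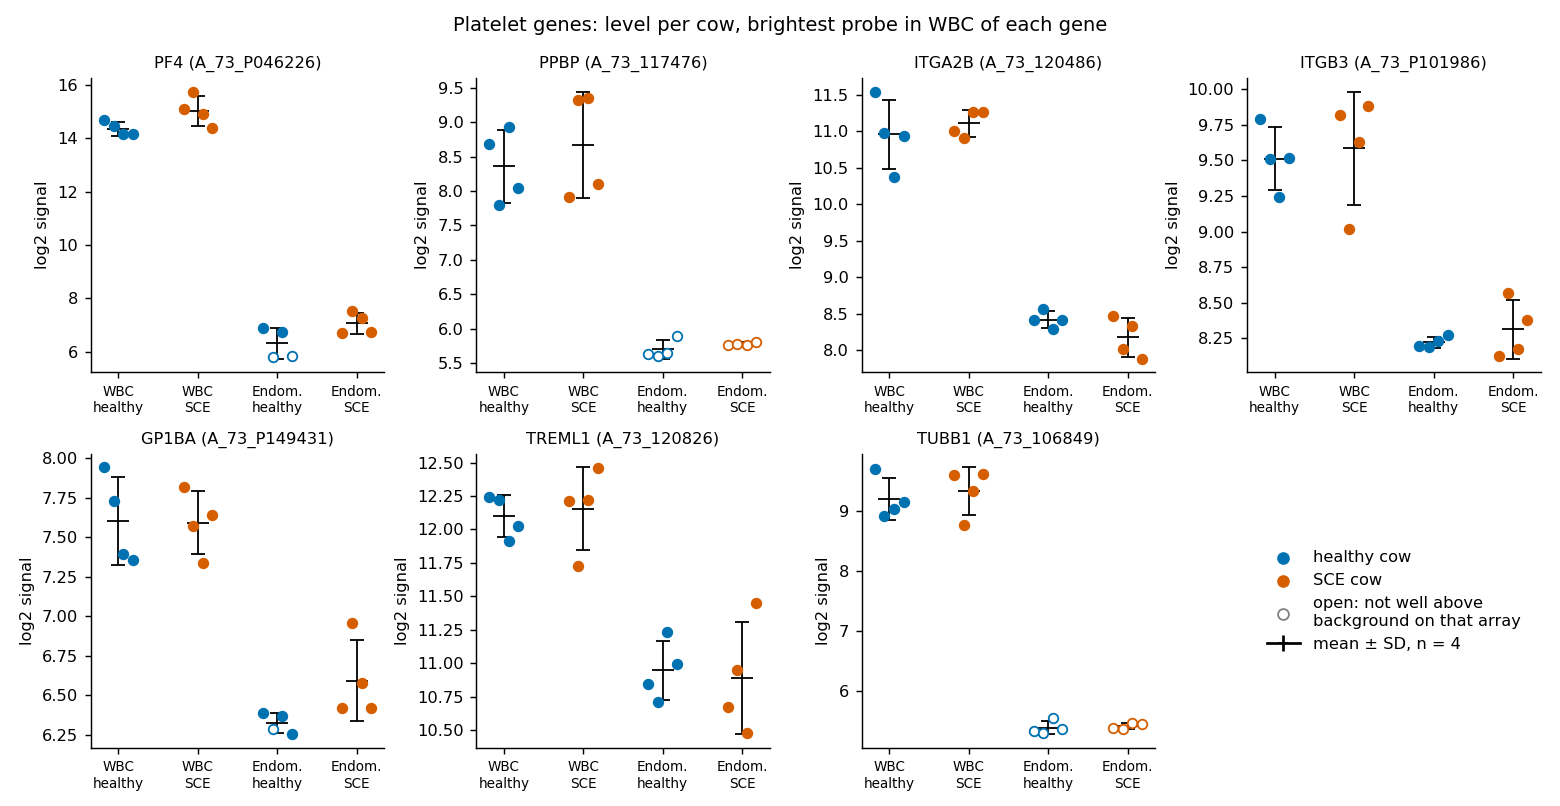
Level (log2 signal, vertical axis) of 7 platelet genes in each cow, for the probe of each gene with the highest mean signal in WBC, by tissue and disease group (horizontal axis). Points are cows, open points are arrays on which the probe was not well above background, and bars are the mean ± SD of 4 cows. Every gene was higher in WBC than in endometrium, and the SCE and healthy cows overlapped in WBC for each of these probes.

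PF4 was the member with the widest difference between the groups in WBC among those that were well above background there. By probe A_73_P046226 its WBC level was 14.69, 14.46, 14.14 and 14.16 in the healthy animals (cows 841, 850, 877, 883), against 15.09, 15.74, 14.91 and 14.39 in the SCE animals (cows 718, 833, 836, 846). The 3 highest cows were SCE cows, while SCE cow 846 lay among the healthy cows, so the groups overlapped. By CUST_1911_PI427023673 the levels were 13.77, 13.62, 13.13 and 13.10 for the healthy and 14.17, 14.83, 14.00 and 13.63 for the SCE animals, in the same order of cows. By CUST_1912_PI427023673 they were 13.83, 13.65, 13.24 and 13.20 against 14.24, 14.88, 14.28 and 13.76. With each probe SCE cow 846 lay below healthy cow 841. By A_73_P046226 it lay below healthy cow 850 as well, and by the other PF4 probes above that cow.

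In WBC, PF4 exceeded its healthy level in the SCE group by 0.67 (SE 0.26), 0.75 (SE 0.26) and 0.81 (SE 0.24) on the log2 scale with the 3 probes, which is 1.59, 1.68 and 1.75-fold. Its unadjusted p against a 1.2-fold threshold was 0.0804, 0.0469 and 0.0243 by TREAT, limma's test of a change larger than a set fold, and the adjusted p was 1 for each. By that rule 2 of the 17 platelet probes passed without adjustment, both of PF4, where 0.122% of all probes passed, and 1 of the 7 genes, where 0.176% of all genes had such a probe. Since PF4 is here because of this difference, nothing is read from that count. After adjustment no probe of the array passed in this comparison.

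The size of the PF4 difference depended on single cows. Without SCE cow 833 it was 0.43, 0.53 and 0.61, and no PF4 probe passed the unadjusted threshold (unadjusted p = 0.213, 0.117 and 0.0557 by TREAT, fitted with limma across all probes). No PF4 probe passed without healthy cow 877 (unadjusted p = 0.0599 to 0.153 by TREAT, fitted with limma across all probes) or without healthy cow 883 (unadjusted p = 0.064 to 0.153 by the same limma fit) either. The difference had the same sign within both rows of the slide, each of which held 2 healthy and 2 SCE cows: it was 0.84 in row 1 and 0.50 in row 2 by A_73_P046226, 0.80 and 0.70 by CUST_1911_PI427023673, and 0.82 and 0.80 by CUST_1912_PI427023673. With the row as a block the standard errors were 0.19, 0.17 and 0.18, and all 3 PF4 probes passed the unadjusted threshold (unadjusted p = 0.0341, 0.011 and 0.00805 by TREAT, fitted with limma across all probes), which A_73_P046226 did not without the block. The set was selected on this difference and the PF4 probes are not independent, so these p-values are a description and support no conclusion.

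PPBP, the precursor of a further alpha-granule chemokine and the neighbour of PF4, did not separate the groups. Its WBC level was 8.68, 7.80, 8.93 and 8.04 for the healthy animals, compared with 7.91, 9.32, 9.35 and 8.10 for SCE. Cows of each group were found at both ends of its range, and the difference was 0.31 with a 95% interval of -0.55 to 1.16. It was 0.08 without SCE cow 836, 0.09 without SCE cow 833 and 0.56 without SCE cow 718.

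The chains of the fibrinogen receptor differed little between the groups by their bright probes. ITGA2B was at 11.54, 10.98, 10.38 and 10.94 for the healthy animals and 11.00, 10.91, 11.27 and 11.26 for SCE by A_73_120486, a difference of 0.15 (SE 0.23). Healthy cow 841 was the highest of all and healthy cow 877 the lowest. By its other probe, A_73_P368736, the difference was 0.23 (SE 0.13). ITGB3, which also pairs with the alpha-V integrin chain on cells other than platelets, was at 9.79, 9.51, 9.24 and 9.52 against 9.82, 9.02, 9.63 and 9.89 by A_73_P101986, a difference of 0.07 (SE 0.21) that was 0.26 without SCE cow 833. SCE cow 833, which had the most PF4, had the lowest ITGB3 of the 8 cows.

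Among the dim ITGB3 probes, A_73_P101636 was well above background on 5 of 8 WBC arrays. It differed by 0.16 (SE 0.17), with overlap of the groups. The other dim ITGB3 probes read otherwise than the bright one. A_73_P066126 was well above background on only 1 WBC array, that of SCE cow 846, at 8.22, while the other SCE cows were at 5.91 to 6.44 and the healthy cows at 5.80 to 6.25. The difference of 0.71 (SE 0.42) by this probe rested on that array: it was -0.05 in the slide row without the cow and 1.48 in the row with it. Without SCE cow 833 it was 0.99 (unadjusted p = 0.0491 by TREAT, fitted with limma across all probes). A_73_113738 was the 1 platelet probe without overlap between the groups in WBC, where 1.3% of all probes had none. It was at 6.03 to 6.38 in the healthy cows, none of them well above background, and at 6.40 to 6.83 in the SCE cows, 2 of them well above background.

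GP1BA, the chain of the GPIb-IX-V complex that binds von Willebrand factor, was measured by A_73_P149431 at 7.94, 7.73, 7.39 and 7.36 for the healthy animals, compared with 7.82, 7.57, 7.34 and 7.64 for SCE. The groups overlapped fully, with a difference of -0.01 (95% interval -0.40 to 0.37). TREML1 was at 12.25, 12.22, 11.92 and 12.03 against 12.21, 11.73, 12.22 and 12.46 by A_73_120826, a difference of 0.05 (95% interval -0.33 to 0.44), and its other probe gave -0.11 (95% interval -0.60 to 0.38). TUBB1 was at 9.71, 8.92, 9.05 and 9.16 against 9.61, 8.77, 9.34 and 9.63 by A_73_106849, a difference of 0.13 (95% interval -0.40 to 0.65). By A_73_P286311 it was at 9.16, 8.72, 8.70 and 9.08 against 9.04, 8.51, 9.02 and 9.03, a difference of -0.01 (95% interval -0.40 to 0.38). SCE cow 833 was the lowest of the 8 cows by both TUBB1 probes. Without it the difference was 0.20 for TREML1 by A_73_120826, and for TUBB1 0.31 by A_73_106849 and 0.12 by A_73_P286311, the latter with its sign turned.

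Over the 17 platelet probes the WBC difference ran from -0.24 to 0.81, with 12 above 0 and 5 below. Its median was 0.15, beside -0.01 for all probes, of which 48.1% were above 0. The tally includes the PF4 probes, for which the set was selected and which read nearly the same stretch. It also includes the dim ITGB3 and GP1BA probes, so nothing is read from it.

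**Figure D2:**
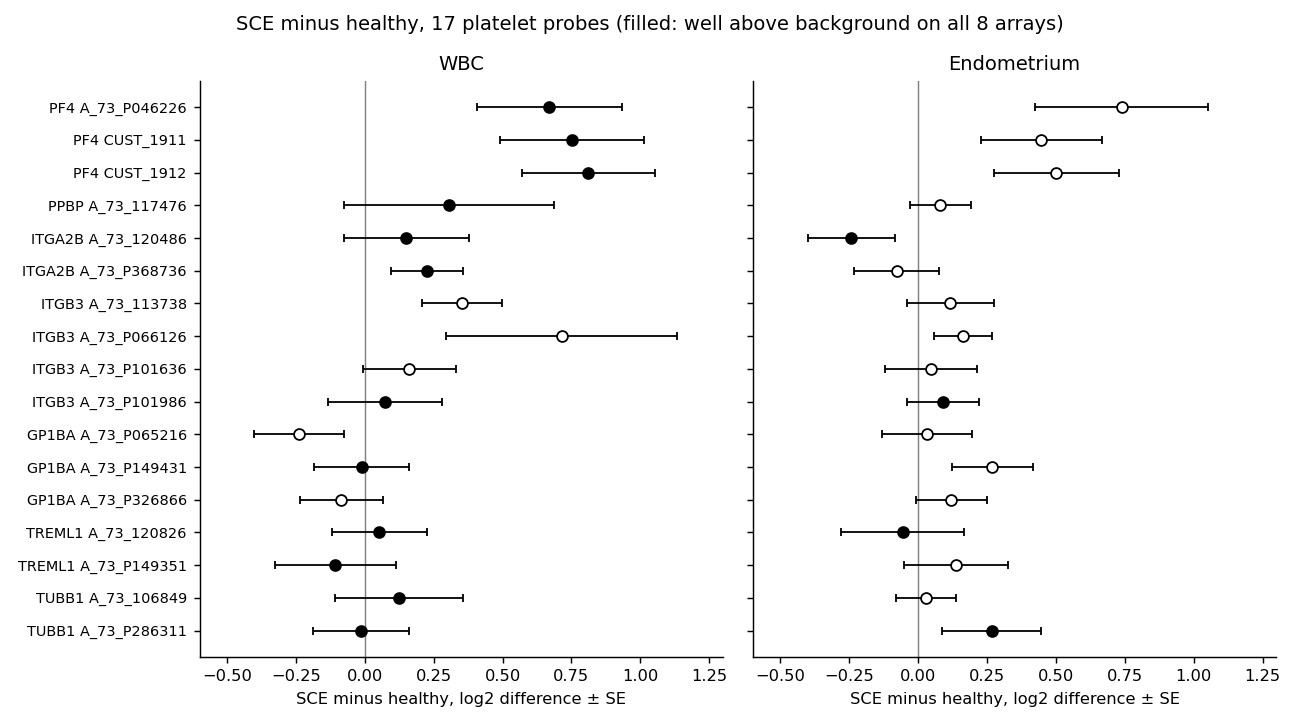
Difference between SCE and healthy cows (log2, horizontal axis, point ± SE, 4 cows a group) for each of the 17 platelet probes in WBC (left) and endometrium (right). Filled points are probes that cleared background on each array of the tissue. The PF4 probes sit at 0.67 to 0.81 in WBC and 0.45 to 0.74 in the endometrium, and the other probes between -0.24 and 0.71.

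The platelet genes differed in which cows were highest in WBC. With each gene taken as the mean of its WBC probes that were well above background on all arrays, and centred on its mean over the 8 cows, SCE cow 833 was at 1.03 for PF4 and 0.80 for PPBP, and below 0 for ITGB3, TUBB1, TREML1 and GP1BA. SCE cow 846 showed the reverse, with PF4 at -0.19 and PPBP at -0.42 and the 5 other genes above 0. In healthy cow 877 PPBP was at 0.42 and the 6 other genes were below 0.

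Of the 22 relations examined across the cows, 21 between the genes in WBC and 1 between PF4 in WBC and in endometrium, the closest was that of ITGB3 with TUBB1. Pearson's r was 0.922 (exact permutation test, 2-sided p = 0.000992, adjusted p = 0.0218, n = 8) and Spearman's rho 0.905 (exact permutation p = 0.00456, adjusted p = 0.1), so that only the former passed after adjustment. It was 0.839 without cows 877 and 833, which lay farthest from the median of ITGB3, and 0.921 over the deviations from the group means. No other relation passed after adjustment by either coefficient. The correlation of PF4 with ITGB3 was -0.24 (exact permutation p = 0.564, adjusted p = 0.653, n = 8; Spearman's rho 0.095, exact permutation p = 0.84) and became 0.656 without SCE cow 833, so its sign rested on that cow. That of PF4 with TUBB1 likewise went from -0.214 (exact permutation p = 0.614, adjusted p = 0.67, n = 8; rho 0.048, exact permutation p = 0.935) to 0.53 without it. PF4 and PPBP correlated at 0.449 (exact permutation p = 0.264, adjusted p = 0.415, n = 8; rho 0.357, exact permutation p = 0.389) and at 0.113 without SCE cow 833. The values of a cow come from 1 array and share its RNA, labelling and signal level, and a slide row with 4 cows is too few for a correlation within it.

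**Figure D3:**
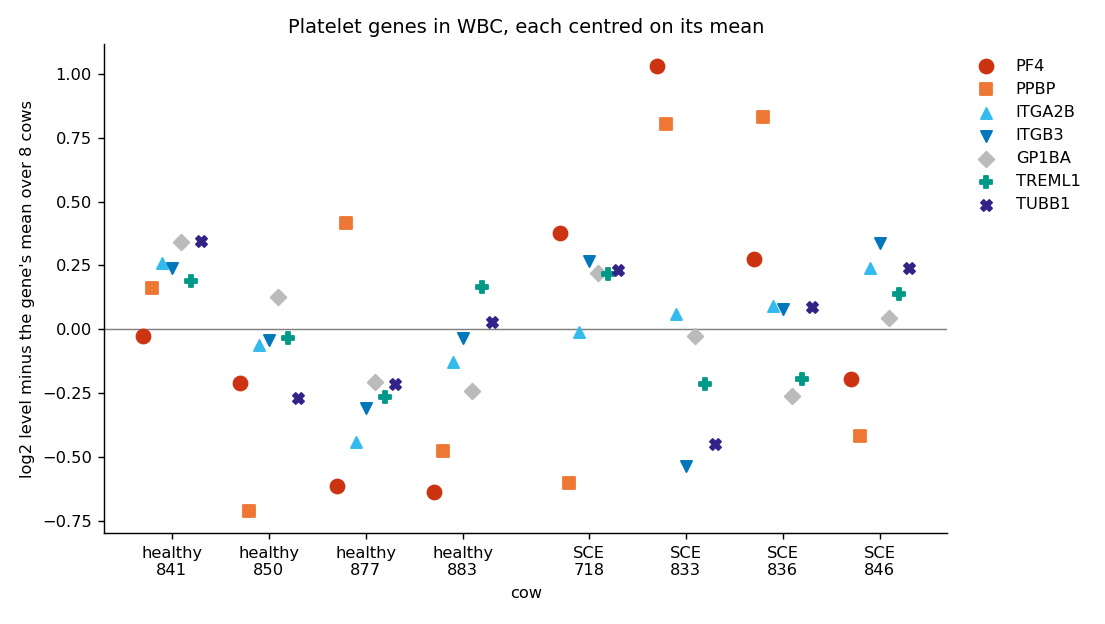
Level of 7 platelet genes in the WBC of each cow (horizontal axis), as the log2 level minus the mean of that gene over the 8 cows (vertical axis). In SCE cow 833 PF4 and PPBP sit at 1.03 and 0.80 while ITGB3 and TUBB1 are below 0, and in SCE cow 846 PF4 and PPBP are below 0 while the other genes are above it.

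In the endometrium most platelet probes were at or near background. PF4 was well above background on 6 of 8 endometrial arrays by A_73_P046226 and on 3 by each of the other probes. By A_73_P046226 it was at 6.90, 5.80, 6.75 and 5.85 in the healthy animals and at 6.71, 7.52, 7.27 and 6.75 in the SCE animals, with the cows in the order given above. The arrays of healthy cows 850 and 883 were those not well above background, SCE cows 833 and 836 were the highest, and the groups overlapped.

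In the endometrium, the SCE group exceeded the healthy group in PF4 by 0.74 (SE 0.31) by A_73_P046226, 0.45 (SE 0.22) by CUST_1911_PI427023673 and 0.50 (SE 0.23) by CUST_1912_PI427023673. None of the 17 platelet probes passed unadjusted TREAT there, where 0.453% of all probes and 0.63% of all genes did, and no probe of the array passed after adjustment. By A_73_P046226 it was 0.59 without SCE cow 833 and 0.93 without healthy cow 841, when its unadjusted p by limma's TREAT was 0.0364. It was 0.77 in row 1 of the slide and 0.71 in row 2. When the quantile-normalized median signal was replaced by processed signals brought to a common 75th percentile, the PF4 values were 1.66, 1.15 and 1.36. PF4 in the endometrium and in the WBC of the same cow, each as the mean of its 3 probes, correlated at 0.696 (exact permutation p = 0.0573, adjusted p = 0.252, n = 8; Spearman's rho 0.667, exact permutation p = 0.0831). The correlation was 0.388 without cows 883 and 833, so the relation rested on those cows, and 0.437 over the deviations from the group means. In the endometrium CUST_1911_PI427023673 and CUST_1912_PI427023673 were well above background on only 3 of 8 arrays each, so this mean is partly signal near background.

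Signs of blood in the biopsies were read beside PF4. The erythroid list had 12 of 14 genes measured and 2 of them well above background on all 8 endometrial arrays, the globin gene HBA (means 14.94 in healthy and 15.11 in SCE cows) and AHSP, which encodes a chaperone of alpha-globin. HBB was well above background on 5 of the 8, with means of 6.42 in healthy and 6.48 in SCE cows. Its difference between endometrium and WBC was -6.98 on the log2 scale, beside -2.05 for HBA, so these globin probes disagreed. ALAS2, the first enzyme of haem synthesis in red cells, was well above background on all 8 WBC arrays and on 0 of 8 endometrial arrays, while SLC4A1 and RHAG were on none in either tissue. The mean level of the list was 6.72 to 6.97 in healthy and 6.72 to 7.34 in SCE cows, highest in SCE cow 833. That cow was also the highest for PF4 by A_73_P046226. By CUST_1911_PI427023673 and CUST_1912_PI427023673 SCE cow 836 was the highest, at 6.70 and 6.80 against 6.68 and 6.63 for cow 833, which was not well above background by either.

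Other cell markers in the biopsies were read likewise. The endometrial difference was above 0 for 10 of 10 T cell genes, 6 of 6 B cell genes, 8 of 9 neutrophil genes and 9 of 10 endothelium genes. It was above 0 for 8 of 10 epithelium genes, 4 of 9 monocyte and macrophage genes and 0 of 7 stroma genes, beside 49.1% of all probes. No gene of these lists passed unadjusted TREAT, where 0.63% of all genes did. The neutrophil genes CXCR1 and CXCR2 were read by the same probe. That measurement enters the counts and mean levels of the neutrophil list under both names, in WBC as well. The mean level of the neutrophil list was 8.25 to 8.71 in healthy and 8.26 to 9.14 in SCE cows, that of the T cell list 7.92 to 8.03 and 7.95 to 8.64, and that of the B cell list 7.87 to 8.33 and 8.13 to 8.57. The endothelium list was at 10.90 to 11.93 and 10.99 to 12.85, and the stroma list at 14.07 to 14.66 in healthy and up to 14.73 in SCE cows, with means of 14.28 and 13.92. The monocyte and macrophage list was at 9.79 to 10.44 in healthy and 9.20 to 10.95 in SCE cows, highest in SCE cow 718. The T cell list too was highest in that cow, at 8.64 against 7.95 to 8.13 in the other SCE cows. Genes of a list were read on the same arrays, so the counts above 0 are not of independent measurements. SCE cow 833 was the highest of the neutrophil, B cell and endothelium lists and the lowest of the stroma list. The part of these cells and of blood in the PF4 values was not tested.

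PPBP was not well above background on any endometrial array (5.61 to 5.90), nor was TUBB1 by A_73_106849 (5.31 to 5.56). Among probes with signal over background on every endometrial array, ITGA2B A_73_120486 differed by -0.24 (SE 0.16), ITGB3 A_73_P101986 by 0.09 (SE 0.13; 0.00 without SCE cow 833), TREML1 A_73_120826 by -0.06 (SE 0.22) and TUBB1 A_73_P286311 by 0.27 (SE 0.18). GP1BA A_73_P149431 was the 1 platelet probe without overlap between the groups, where 1.63% of all probes had none. It was well above background on 7 of 8 endometrial arrays, not on that of healthy cow 850. It was at 6.39, 6.29, 6.37 and 6.25 for the healthy animals and 6.42, 6.96, 6.58 and 6.42 for SCE, a difference of 0.27 (SE 0.15) that was 0.15 without SCE cow 833, and its lowest SCE cow lay only just above its highest healthy cow. Over the 17 probes 14 differences were above 0 and 3 below, with a median of 0.12, beside 0.00 for all probes, of which 49.1% were above 0. That tally too includes the PF4 probes, and most of the 17 were not well above background on every endometrial array.

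The differences in the endometrium and in WBC were set against each other in 1 fit of all 16 arrays. None of the 17 platelet probes passed unadjusted TREAT for a disease difference unlike between the tissues, where 0.496% of all probes did. For PF4 A_73_P046226 the endometrial difference was larger than that in WBC by 0.07 (95% interval -0.86 to 0.99), and for each of the other PF4 probes the value was -0.31, with intervals of -1.08 to 0.47 and -1.06 to 0.44.

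All 7 platelet genes were lower in the endometrium than in WBC, and 5 of them, without ITGB3 and GP1BA, still were by the same test when each tissue was normalized on its own. The values of all 17 probes were lower, although 3 dim probes, ITGB3 A_73_113738 and GP1BA A_73_P065216 and A_73_P326866, turned to the other direction when each tissue was normalized on its own. Of the 17 probes 13 passed TREAT after adjustment, where 31.2% of all probes were lower in the endometrium by that rule and 53.9% passed in either direction. All 7 genes had such a probe, where 37.4% of all genes did for a lower level. For 12 of the 17 probes no endometrial array reached any WBC array, where 21.6% of all probes were lower in that way and 37% did not overlap in either direction. The median of all probes was lower in the endometrium by 0.16 on the log2 scale, and the scaling moved it between -0.40 and 0.35, so the tissue differences below are to be read relative to that shift.

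PF4 showed the widest tissue difference of the platelet genes. Its mean was 14.70 ± 0.54 (SD, n = 8) in WBC and 6.70 ± 0.61 (SD, n = 8) in endometrium by A_73_P046226, which is 256.4-fold (adjusted p = 8.9e-14, limma's TREAT). The other probes, well above background on only 3 of 8 endometrial arrays each, gave 189.9-fold and 202.9-fold. Over the settings that kept every cow and the 3 probes the PF4 difference ran from -9.70 to -7.04 on the log2 scale, so these folds depend on the scaling. No WBC array was under 14.14 and no endometrial array over 7.52. PPBP, with no endometrial array well above background, was at least 6.81-fold higher in WBC (adjusted p = 4.19e-08, limma's TREAT). Over the same settings its log2 difference ran from -5.48 to -2.06, so this bound too depends on the scaling.

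ITGA2B was 6.68-fold and 3.70-fold higher in WBC by its probes, and unlike PPBP it was well above background on all 8 endometrial arrays by A_73_120486, at 7.88 to 8.56. With each tissue normalized on its own its log2 differences went from -2.74 to -1.82 and from -1.89 to -1.10, and both still passed. ITGB3 was 2.43-fold higher in WBC by its bright probe A_73_P101986 (adjusted p = 2.34e-06, limma's TREAT), with an endometrial level of 8.12 to 8.57. GP1BA was 2.20-fold higher by A_73_P149431 (adjusted p = 3.8e-06, limma's TREAT). The calls of ITGB3 and GP1BA were lost when each tissue was normalized on its own, with differences that fell from -1.28 to -0.33 and from -1.14 to -0.44.

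The probes of TUBB1 and TREML1 disagreed on the endometrium. By A_73_106849 TUBB1 was not well above background on any endometrial array and was at least 12.3-fold higher in WBC (adjusted p = 2.15e-12, limma's TREAT). Over the settings that kept every cow its log2 difference by this probe ran from -6.515 to -3.144, so the bound depends on the scaling. By A_73_P286311, in contrast, TUBB1 was well above background on all 8 endometrial arrays, at 6.89 to 7.78, and 3.07-fold higher in WBC. By A_73_P149351 TREML1 was well above background on 1 of 8 endometrial arrays and 5.54-fold higher in WBC (adjusted p = 2.5e-09, limma's TREAT), with a log2 difference of -4.79 to -1.86 over the same settings. By A_73_120826 it was bright on every endometrial array, at 10.48 to 11.45, and 2.32-fold higher in WBC (adjusted p = 1.85e-05, limma's TREAT), a call that was lost when each tissue was normalized on its own (-0.37, adjusted p = 0.371 by limma's TREAT). Both genes thus had 1 probe that read signal in the endometrium and 1 that read little or none there.

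**Figure D4:**
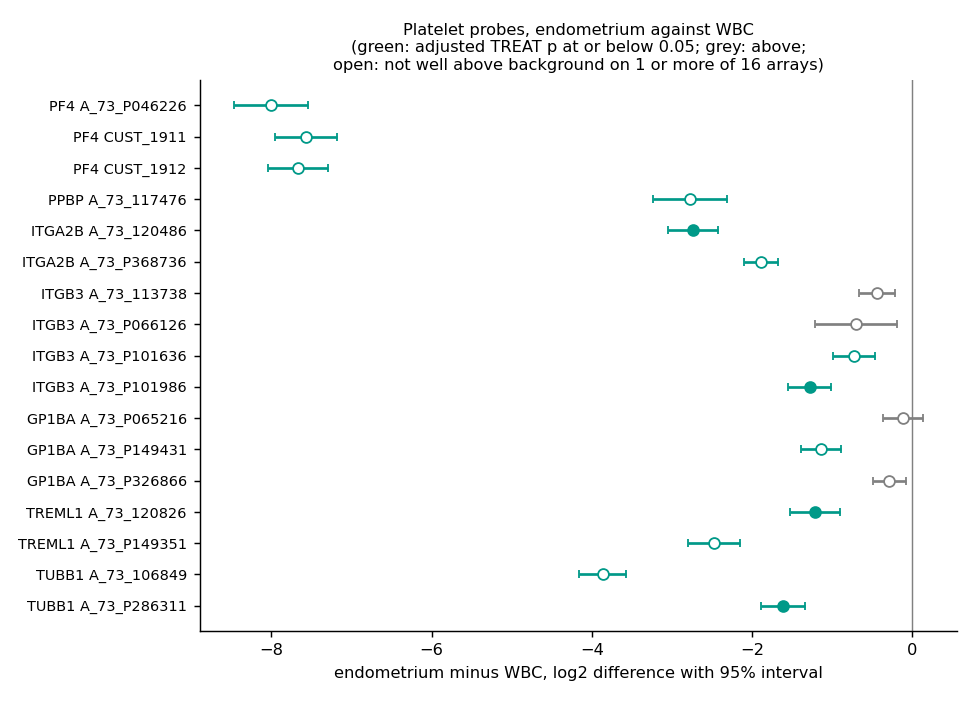
Difference between endometrium and WBC (log2, horizontal axis, point with 95% interval, 8 arrays a tissue) for each of the 17 platelet probes. Green points passed limma's TREAT after adjustment and grey points did not, and open points are probes not well above background on 1 or more of the 16 arrays. The PF4 probes lie at -8.00 to -7.57, TUBB1 A_73_106849 at -3.86, and the dim ITGB3 and GP1BA probes closest to 0.

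Genes whose levels followed the platelet probes most closely were ranked over the 8 arrays of a tissue, as a description. In WBC, where 12 member probes made up the mean profile and 10947 genes were ranked, they were ENDOD1 (r = 0.92), MYL3 (0.90), LIMS1 (0.90), BCL2L1 (0.90), GIMAP6 (0.89), LY9 (0.88), CD84 (0.87) and FER (0.87). In the endometrium, with 4 member probes and 10910 genes, they included CADM3 (r = 0.96), CD1D (0.95), DCTN5 (0.93), ACVR2A (0.92), DAB2 (0.90), HDAC4 (0.90) and SIRPB1 (0.90). None of these was in the lists of other platelet genes below. The genes of those lists had a median r of 0.03 in WBC and 0.15 in endometrium, beside -0.03 and 0.03 for all ranked genes, and the closest of them was F2R in WBC, at rank 61. The mean profile weighed probes equally and rested on different genes in each tissue. In WBC 3 of the 12 probes were of PF4. The 4 endometrial probes were of ITGA2B, ITGB3, TREML1 and TUBB1, with none of PF4 or PPBP. For TREML1 and TUBB1 they were A_73_120826 and A_73_P286311, whose endometrial signal the other probe of each gene did not share. With 8 arrays and this many genes ranked, high values of r can arise by chance, so nothing is read from the ranking.

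Further genes of platelets were read from 7 lists of 84 genes, of which 78 had a probe and 62 were well above background on all 8 WBC arrays. In WBC 0 of the 78 passed unadjusted TREAT between SCE and healthy cows by any of their probes, in either direction. Of all genes 0.176% had a probe that passed by that rule, so nothing is read from this count. A difference above 0 was found for 51 of the 78 by the brightest probe. Their median difference was 0.06, beside -0.01 for all probes, of which 48.1% were above 0. The receptors that platelets use to sense thrombin and other agonists had a median of 0.01 over 15 genes, with 0.34 (SE 0.17) for the thrombin receptor gene F2RL2 and -0.31 (SE 0.53) for F2R. The granule proteins had a median of 0.10 over 17 genes, with 0.34 (SE 0.18) for CLU, the chaperone clusterin, and 0.34 (SE 0.19) for F13A1, the A subunit of the fibrin-linking factor XIII.

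The surface and adhesion list had a median of -0.01 over 11 genes, with -0.53 (SE 0.35) for the tetraspanin CD151 and -0.23 (SE 0.15) for CD63, a tetraspanin of granule membranes. The list of integrin activation, signalling and cytoskeleton had a median of 0.08 over 20 genes, with 0.50 (SE 0.41) for the G-protein subunit GNG11 and 0.44 (SE 0.24) for the myosin light chain MYL9. The megakaryocyte transcription factors and thrombopoietin axis had a median of 0.06 over 11 genes, with 0.69 (SE 0.28) for MEIS1 and -0.21 (SE 0.34) for GATA1. Of the enzymes that make eicosanoids, PTGS1 was at -0.21 (SE 0.27) and PLA2G4A at 0.20 (SE 0.46). VWF, the ligand of the GPIb-IX-V complex, was at 0.20 (SE 0.28).

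In the endometrium 1 of the 78 genes passed unadjusted TREAT, where 0.63% of all genes did. It was PDLIM1, which encodes a protein linking actin filaments to signalling enzymes. Its level was 13.21 ± 0.29 in healthy and 13.96 ± 0.24 in SCE cows (SD, n = 4), a difference of 0.75 (SE 0.19, unadjusted p = 0.0154 and adjusted p = 1 by limma's TREAT), and in WBC its difference was 0.42 (SE 0.23). The median over the 78 genes was 0.06, and 43 were above 0, beside 49.1% of all probes. Between the tissues 39 of them were lower in the endometrium and 24 higher after adjustment, each by its brightest probe. Of all probes 31.2% were lower by that rule and 53.9% passed in either direction. Both directions occurred in each of the 7 lists. On the log2 scale F13A1 differed by -7.37 and GATA1 by -4.26, whereas VWF was higher in the endometrium by 3.58 and MEIS1 by 3.82.

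**Figure D5:**
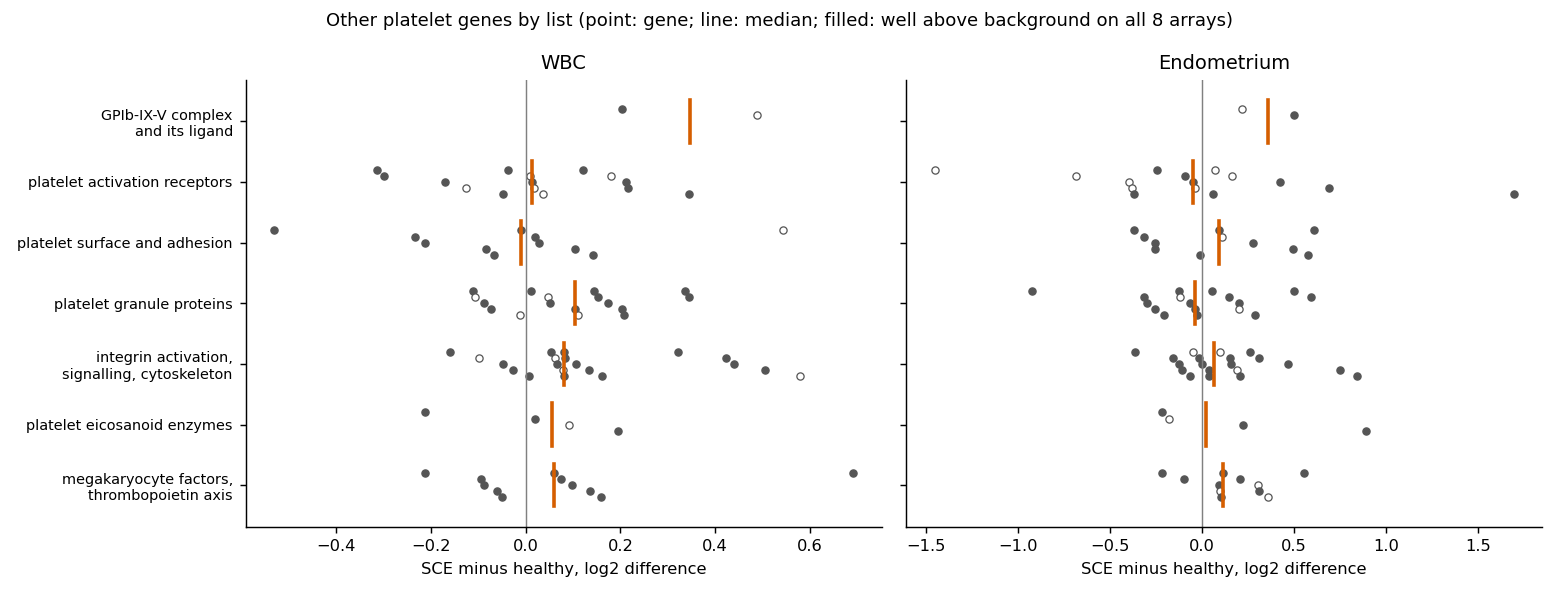
Difference between SCE and healthy cows (log2, horizontal axis) for the 78 measured genes of 7 lists of other platelet genes (vertical axis) in WBC (left) and endometrium (right). Points are genes, filled where the probe was well above background on all 8 arrays of the tissue, and lines are medians, which lie between -0.01 and 0.35 in WBC.

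Markers of other cells were read beside these values in WBC. The monocyte and macrophage list, with 9 of 10 genes measured, had a mean level of 11.45 to 12.08 in healthy and 11.45 to 12.09 in SCE cows. Of its genes 1, CSF1R, passed unadjusted TREAT with a difference of 0.64 (SE 0.17). In WBC 0.176% of all genes had a probe that passed by that rule. SCE cow 833, the highest for PF4, was among the lowest of this list. The neutrophil list was at 12.76 to 13.29 against 12.81 to 13.13. Of its 9 measured genes 1, FCGR3A, passed unadjusted TREAT by A_73_102350 and A_73_P032171, with 0.55 (SE 0.26) by its brightest probe, which did not pass. Most of the list went the other way: 3 of the 9 neutrophil genes had a WBC difference above 0, and the median was -0.16. In the monocyte and macrophage list 8 of 9 were above 0, with a median of 0.23, beside 48.1% of all probes. The T cell list was at 11.26 to 11.44 against 11.17 to 11.53, and the erythroid list at 8.34 to 9.04 against 8.11 to 8.75. In each of these lists the groups overlapped, and their part in the PF4 difference was not tested. Over both groups the neutrophil list was at 12.76 to 13.29 in WBC and 8.25 to 9.14 in endometrium, and the endothelium list at 6.78 to 6.91 and 10.90 to 12.85.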

How the data were processed

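RNA of 16 samples from 8 cows (4 SCE, 4 healthy, WBC and endometrium of each) was labelled with cyanine 3 and hybridized to 1-colour custom bovine arrays. The authors extracted the deposited spot intensities from the scans with Agilent Feature Extraction 10.10.1.1 (per the file headers and the submitters' processing notes), without normalization, and also deposited a table of normalized intensities. The coordinates are those of the scanner files, whose header names HGSC Btau_3.1, while the array's design text names the bovine assembly UMD3.1.

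As in the study's methods, median intensities were quantile-normalized over the 16 arrays and log2-transformed, here after removing 1319 control spots and masking non-uniform and population outlier spots. Spots of a probe were averaged, which left 46615 probes from 52689 spots. Of these, 28036 were named through a RefSeq accession, 5312 by symbol, 189 by synonym and 13078 by the file's own name. Comparisons used TREAT of limma 3.58.1 (R 4.3.3, data.table, version 1.17.8) with a threshold of 1.2-fold and Benjamini-Hochberg adjustment over all probes. They were SCE against healthy within each tissue (8 arrays), and endometrium against WBC and the difference of the disease effects in 1 fit of 4 groups. The fits were tested on simulated data. Figures and permutation tests were made in Python 3.11.15 (matplotlib 3.10.9).

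The authors' normalized intensities differed from those computed here by a median of 0.0415% and by at most 2.48%, and were used as an alternative. The other alternatives were normalization within each tissue, processed signals scaled to their 75th percentile, normexp correction with an offset of 50, other TREAT thresholds, a filter on dim probes, outlier spots kept, means over the probes of a gene, the slide row and the cow as blocks, 1 fit of all arrays, and leaving out each cow. A probe below background on all arrays of a tissue gave a bound, the fold against the higher of its own signal and the lowest signal well above background on each array. The number of arrays limits the precision. Replicates were separate cows. WBC and endometrium of the same cow are paired by the labels, and the correlation of a cow's deviations from the group means in the tissues, over 23893 probes, ran from -0.33 to 0.14.

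The members and all lists were chosen with earlier results of these data known. Named were all probes of the members, genes of the other platelet lists past unadjusted TREAT and the 2 genes of each list with the largest WBC difference among those above background on all 8 WBC arrays, and the 8 genes most like the members in each tissue. A few items are not reported here. The samples of each group were taken from the labels, and no column of other samples was used.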

Additional observations from a re-analysis of the deposited data

Results flagged for a closer look

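In each group of 4 cows the highest and the lowest value of each of the 17 probes was compared with the rest of its group, which made 68 groups, and 4 of them held a cow far from the others. Chance alone is expected to mark about 1 in 20 groups. The TUBB1 level by A_73_P286311 in the WBC of SCE cow 833 was 8.5104, while the other SCE cows were at 9.02 to 9.04, and all 4 were well above background. The remaining 3 were on arrays where the probe was not well above background: PPBP at 5.8999 in the endometrium of healthy cow 883 (others 5.61 to 5.65), PPBP at 5.8135 in the endometrium of SCE cow 846 (others 5.77), and ITGB3 by A_73_P066126 at 5.6464 in the endometrium of SCE cow 836 (others 5.80 to 5.83).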

How the results depend on the processing

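Between SCE and healthy cows in WBC 1 platelet gene, PF4, had a probe past unadjusted TREAT. There were 2, PF4 and ITGB3, with the processed signal scaled to its 75th percentile and also 2, the same genes, with no fold threshold. Leaving out a cow gave 0 to 1: 0 without healthy cow 877 or 883, and without SCE cow 833 the gene was ITGB3 in place of PF4. In the endometrium 0 genes passed, 1 (PF4) with no fold threshold, and 0 to 1 when a cow was left out, the 1 being PF4 without healthy cow 841. Over all settings that kept every cow the PF4 difference by A_73_P046226 was 0.65 to 0.68 in WBC, and 0.50 to 1.66 in the endometrium. The processed signal scaled to its 75th percentile, in place of the quantile-normalized median signal, moved 3 WBC differences of single probes, all of ITGB3 probes near background, and 13 endometrial ones by more than the spread between cows, and turned the direction of none of these. For the tissue difference 7 genes passed, and 5 with normalization within each tissue, which lost GP1BA and ITGB3. Under that setting ITGB3 A_73_113738 (0.0382), GP1BA A_73_P065216 (0.0926) and GP1BA A_73_P326866 (0.0394), all at or near background, changed direction. The cause was not tested. With the cow as a replicate block, 7 genes passed in the paired fit as well, and it changed no call of a gene. No platelet gene passed for the difference of the disease effects under any setting. For the tissue difference of single probes 10 values gained and 5 lost their call under some setting. With 13 of 17 probes not above background on every endometrial array, differences there are limited by signal.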
